A study of Mus musculus with 21 samples.

Results

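Natural killer (NK) cells that had lost Ikaros (gene Ikzf1) were compared directly with NK cells that had lost its relative Aiolos (gene Ikzf3), with no control library in the test. The comparison used 8 of the 21 samples of the series, 4 Ikzf1 KO libraries (columns S12 to S15) and 4 Ikzf3 KO libraries (columns S1 to S4), and every gene with an RPKM (reads scaled by gene length and library depth) of 1 or more in at least 3 of the 8. Of 11736 genes in the deposited table, 9643 met this rule and 2093 did not. The mice carried a conditional knockout meant for NK cells, of Ikzf1 in the first group and of Ikzf3 in the second. Cells were sorted from spleen and kept in medium with recombinant human interleukin 15 (IL-15) at 50 ng/ml before their polyadenylated RNA was sequenced, and this culture was shared by both knockouts. The table also held 3 libraries of cells without either factor (DKO, S5 to S7) and 4 of cells with Cre alone (Cre only, S16 to S19), all cultured in the same way, whose levels are set beside those of the single knockouts as a description. The line that drives Cre and the strain, age and sex of the mice are not given in the sources used here. The labels call the samples biological replicates without saying that each is a separate animal, so p-values measure the spread between these libraries, which may be technical.

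Ikaros and Aiolos belong to a small family of zinc finger transcription factors of lymphocytes. One set of fingers binds DNA with the core letters GGGAA, the other lets family members pair with each other, and the bound proteins recruit the NuRD chromatin-remodelling complex among other partners. Both are present in NK cells, innate lymphocytes that kill infected or transformed cells with perforin and granzymes and that depend on IL-15. The comparison asks which messages separate the loss of the one factor from the loss of the other.

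The Ikzf3 KO libraries were not alike, which bears on every value below. S1 and S2 correlated at 0.9904 across genes and S3 and S4 at 0.9733, while S1 or S2 against S3 or S4 gave 0.8896 to 0.9083. The Ikzf1 KO libraries correlated at 0.9816 to 0.995 among themselves. Genes are not independent replicates, so these values only describe the libraries. The median SD of a gene on the log2 scale was 0.1216 in Ikzf1 KO cells and 0.3616 in Ikzf3 KO cells, against 0.09675 between S1 and S2 alone and 0.208 between S3 and S4 alone. The means of the Ikzf3 KO pairs lay more than 1 log2 unit apart in 1855 genes (19.24%), and in 3838 genes (39.8%) the Ikzf1 KO mean fell between them. The labels name no batch for these pairs, and the cause was not tested. Each result is therefore also given against S1 and S2 alone and against S3 and S4 alone where this matters. Depth recovered from the steps of the RPKM values ran from 11.26 to 21.25 megareads in Ikzf1 KO libraries and from 8.613 to 12.74 in Ikzf3 KO libraries.

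The libraries held the genes that define NK cells. Ncr1, the NKp46 receptor, averaged 112 ± 8.12 RPKM in Ikzf1 KO cells and 146 ± 46 RPKM in Ikzf3 KO cells (SD, n = 4 each), and Klrb1c, the NK1.1 receptor, averaged 143 ± 17 RPKM in Ikzf1 KO cells and 163 ± 76.3 RPKM in Ikzf3 KO cells (SD, n = 4 each). Of 11 such markers 2 were higher in Ikzf1 KO cells (Gzma and Tbx21) and 1 was lower (Prf1), and these 3 are described with their groups. Some markers of other lineages were at or near 0 and others were well above it. Cd4, Cd8a, Cd6 and Themis were at 0.444 RPKM or less in every library of both knockouts, and Pf4, a platelet gene, was at 0 in each. These 4 were not typical of the T cell genes, as 9 of the 13 in the table passed the filter of the test. Of the myeloid genes in the table, Lyz2 was at 0.473 RPKM or less and Cd68 ran from 19.1 to 21.2 RPKM in Ikzf1 KO cells and from 22.7 to 72.8 RPKM in Ikzf3 KO cells. The summed level of the 13 T cell genes ran from 471 to 564 RPKM in Ikzf1 KO cells and from 534 to 693 RPKM in Ikzf3 KO cells, most of it from Trbc1 and Trbc2. The sum of the 4 macrophage genes ran from 22.2 to 24.1 RPKM in Ikzf1 KO cells and from 31.2 to 85.8 RPKM in Ikzf3 KO cells, and that of the 2 B cell genes from 28.7 to 48.3 RPKM in Ikzf1 KO cells and from 27.9 to 106 RPKM in Ikzf3 KO cells. The 7 dendritic cell genes summed to 106 to 134 RPKM in Ikzf1 KO cells and 74.6 to 129 RPKM in Ikzf3 KO cells, and the 3 basophil and mast cell genes to 125 to 191 RPKM in Ikzf1 KO cells and 103 to 182 RPKM in Ikzf3 KO cells. In bulk RNA, fewer cells of a type and less RNA per cell cannot be told apart.

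The deleted genes gave the check on the labels. Ikzf1 had 19, 19.9, 18.3 and 19.3 RPKM in Ikzf1 KO cells, against 84.8, 80.7, 87.4 and 72.9 RPKM in Ikzf3 KO cells. Ikzf3 had 49.7, 46.3, 48 and 49.2 RPKM in Ikzf1 KO cells, against 19.4, 20.2, 15.2 and 16.4 RPKM in Ikzf3 KO cells. No library of a knockout overlapped the other knockout in either gene. Ikzf1 had a log2 difference of -2.06 ± 0.11 (SE, adjusted p = 4.29e-05) and Ikzf3 a log2 difference of 1.42 ± 0.13 (SE, adjusted p = 0.000264), and an exact permutation test over the 8 libraries gave a 2-sided p of 0.02857 for each, the smallest that 4 against 4 allows. The groups are defined by these deletions, so the p-values bear on the labels only. Ikzf1 had 38.45, 25.3 and 27.2 RPKM in DKO cells and 57.7, 59.3, 61.1 and 69.4 RPKM in Cre only cells. Ikzf3 had 23.7, 20 and 20.9 RPKM in DKO cells and 45, 44.8, 37.7 and 39.6 RPKM in Cre only cells. In each single knockout the gene left intact was thus above every Cre only library. Each difference between the knockouts is therefore wider than the difference from Cre only cells. Neither gene came near 0. RPKM is taken over all exons of a gene, and reads from any exon that a deletion leaves in place would count. Of the other family members Ikzf4, which encodes Eos, was called. Ikzf4 had 5.95, 4.98, 5.44 and 5.76 RPKM in Ikzf1 KO cells, against 1.21, 1.04, 0.0795 and 0.179 RPKM in Ikzf3 KO cells. The gene had a log2 difference of 2.58 ± 0.35 (SE, adjusted p = 0.00252), with 4.43, 3.05 and 3.95 RPKM in DKO cells and 1.87, 1.75, 1.39 and 1.83 RPKM in Cre only cells. Its level in S3 and S4 was below that in S1 and S2, and the difference was 1.89 against S1 and S2 and 3.26 against S3 and S4. Ikzf2, which encodes Helios, averaged 3.71 ± 0.745 RPKM in Ikzf1 KO cells and 3.75 ± 1.68 RPKM in Ikzf3 KO cells (SD, n = 4 each) and was not called (log2 difference of 0.06 ± 0.29 SE, adjusted p = 0.902). Ikzf5 was under 1 RPKM in all 8 libraries.

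Differences were tested on log2(RPKM + 0.5) with limma, and a gene was called where its p, adjusted by Benjamini and Hochberg's method over the 9643 genes, was below 0.05. Of these genes 1033 (10.7%) were called, 521 higher (5.4%) and 512 lower (5.31%) in Ikzf1 KO cells than in Ikzf3 KO cells. The called genes differed by a median log2 fold change of 0.98 where higher and -1.10 where lower, and the median over all genes tested was 0.03. Past a 2-fold difference on this scale lay 255 higher and 295 lower genes, and past a 4-fold difference 61 and 69. The scale understates the change of genes with low values, and 211 of the called genes had every library of one knockout below 1 RPKM. Libraries of the 2 knockouts did not overlap in 1025 of the 1033, against 25.5% of all genes tested, which largely follows from their selection by a test on the same libraries. With S1 and S2 alone as the Ikzf3 KO cells 28.0% of genes were called and with S3 and S4 alone 61.2%, and 997 of the 1033 genes were called in the same direction in both. Each of these fits holds 2 Ikzf3 KO libraries that resemble each other, so its p-values leave out the spread between the pairs. Calls against a single pair are therefore too many. Both fits reuse libraries of the main test, so the 997 genes are not separate support. The main test itself treats S1 to S4 as separate replicates and does not model the pairs, so its p-values may also be too small. The count depended on single libraries, and leaving out S12, S13, S14 or S15 left 419, 540, 448 or 552 called genes, while leaving out S1 gave 1491 and S3 gave 730.

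**Figure D1:**
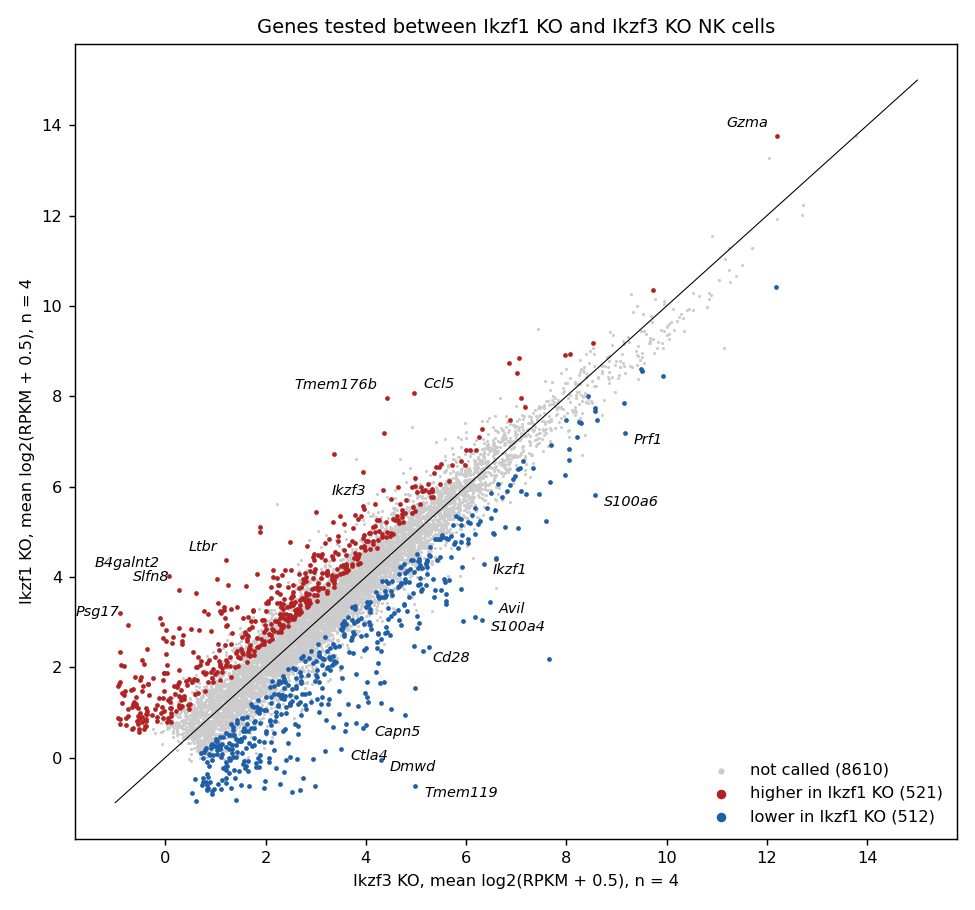
Mean log2(RPKM + 0.5) of each of the 9643 genes tested, Ikzf1 KO cells on the vertical axis and Ikzf3 KO cells on the horizontal axis (n = 4 libraries each). Red points are the 521 genes called higher and blue points the 512 called lower in Ikzf1 KO cells, the line marks equal levels, and some of the genes described in the text are named.

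Genes with a wide gap between the lowest library of the higher group and the highest library of the lower group are described first. The neighbouring genes Tmem176b and Tmem176a, which encode ion channel proteins of intracellular membranes, were about as high in Ikzf1 KO as in DKO cells and low in Ikzf3 KO cells. Tmem176b had 265, 247, 258 and 228 RPKM in Ikzf1 KO cells, against 22.2, 29.7, 11.5 and 24.4 RPKM in Ikzf3 KO cells. Tmem176a had 111, 109, 111 and 93.1 RPKM in Ikzf1 KO cells, against 9.65, 13.4, 5.65 and 12.1 RPKM in Ikzf3 KO cells. All Ikzf1 KO libraries lay far above all Ikzf3 KO libraries in both genes, with log2 fold changes of 3.55 ± 0.26 and 3.38 ± 0.24 (SE, adjusted p = 0.000102 and 9.62e-05). Tmem176b had 226, 242 and 245 RPKM in DKO cells and 116, 121, 32.5 and 19.1 RPKM in Cre only cells, so Cre only library S19 fell within the Ikzf3 KO range and S18 just above it, while S16 and S17 lay between the knockouts. The genes lie head to head with overlapping ends on chromosome 6, Tmem176b on the minus strand (chr6:48833818-48841496) and Tmem176a on the plus strand (chr6:48840919-48847071) of mm10, by GENCODE release 21. The windows of 250 bases upstream of their RefSeq starts (GRCm38.p6, the assembly of mm10) overlap, lie inside both of these gene spans and are shown because the 2 genes moved together. They run 5′ to 3′ on the gene's own strand, with any GGGAA or TTCCC, the core letters of the Ikaros family motif on either strand, in capitals.
Tmem176b: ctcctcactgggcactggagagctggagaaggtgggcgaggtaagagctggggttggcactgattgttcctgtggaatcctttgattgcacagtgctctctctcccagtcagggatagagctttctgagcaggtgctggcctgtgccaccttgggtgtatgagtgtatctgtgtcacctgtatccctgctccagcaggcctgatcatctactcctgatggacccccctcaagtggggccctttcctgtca
Tmem176a: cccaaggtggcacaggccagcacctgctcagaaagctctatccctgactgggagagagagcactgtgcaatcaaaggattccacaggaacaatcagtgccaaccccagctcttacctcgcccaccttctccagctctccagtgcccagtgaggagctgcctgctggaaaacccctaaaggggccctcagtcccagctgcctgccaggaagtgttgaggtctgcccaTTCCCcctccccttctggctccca
The first is chr6:48841138-48841387 (minus strand) and holds neither word, and the second is chr6:48841233-48841482 (plus strand) and holds TTCCC once, at base -24 from the start.

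Slfn8, a member of the Schlafen family of growth regulators, was also higher in Ikzf1 KO cells, with DKO cells at the low side. Slfn8 had 12.2, 14.9, 12.6 and 10.7 RPKM in Ikzf1 KO cells, against 1.15, 0.918, 0.447 and 0.443 RPKM in Ikzf3 KO cells. The highest Ikzf3 KO library stood below the lowest Ikzf1 KO library by a wide margin, with a log2 difference of 3.44 ± 0.22 (SE, adjusted p = 4.82e-05). Slfn8 had 1.33, 1.46 and 1.53 RPKM in DKO cells and 17.5, 18.1, 20 and 17.9 RPKM in Cre only cells, so DKO values lay just above the Ikzf3 KO range and Cre only values above the Ikzf1 KO range. It lies at chr11:83002158-83020810 on the minus strand, and its upstream window, chr11:83020811-83021060, holds GGGAA at base -219 and TTCCC at base -41.
Slfn8: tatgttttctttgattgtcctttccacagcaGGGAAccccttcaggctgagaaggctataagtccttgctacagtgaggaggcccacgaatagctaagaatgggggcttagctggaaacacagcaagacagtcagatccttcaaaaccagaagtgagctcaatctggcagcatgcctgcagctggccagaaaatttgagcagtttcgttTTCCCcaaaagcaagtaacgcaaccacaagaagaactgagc
Its neighbour Slfn9 was also higher in Ikzf1 KO cells, at 17.3 ± 2.07 RPKM in Ikzf1 KO cells and 4.05 ± 1.31 RPKM in Ikzf3 KO cells (SD, n = 4 each, log2 difference of 2.00 ± 0.21 SE, adjusted p = 0.000678). Schlafen genes are close copies of each other, so their counts can be split uncertainly.

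Ccl5, the chemokine RANTES that NK cells store and release, was high in Ikzf1 KO cells as well. Ccl5 had 278, 209, 264 and 333 RPKM in Ikzf1 KO cells, against 18.6, 23.6, 50.6 and 40.1 RPKM in Ikzf3 KO cells. No Ikzf3 KO library reached the lowest Ikzf1 KO library (log2 difference of 3.10 ± 0.31 SE, adjusted p = 0.00049). Ccl5 had 41.7, 84.2 and 119.7 RPKM in DKO cells and 684, 689.7, 801 and 580.4 RPKM in Cre only cells, more in every Cre only library than in any knockout library. Against S1 and S2 the difference was 3.64 and against S3 and S4 2.56.

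The other genes with a wide gap above Ikzf3 KO cells had a range of functions. Ltbr had 20.2, 19.1, 19.9 and 22.1 RPKM in Ikzf1 KO cells, against 3.15, 3.1, 0.743 and 1.26 RPKM in Ikzf3 KO cells. Ltbr encodes the lymphotoxin beta receptor (log2 difference of 3.17 ± 0.34 SE, adjusted p = 0.000642), and its Cre only values of 5.41, 9.06, 0.915 and 0.858 RPKM overlapped the Ikzf3 KO range. B4galnt2 had 18.1, 15.5, 18.8 and 11.4 RPKM in Ikzf1 KO cells, against 0.978, 1.78, 0.0923 and 0.0957 RPKM in Ikzf3 KO cells. B4galnt2 encodes the enzyme that adds the terminal sugar of the Sd(a) antigen (log2 difference of 3.95 ± 0.44 SE, adjusted p = 0.000817), and its exons share 15.3% of their length with a predicted gene on the opposite strand. Psg17 had 8.34, 4.64, 7.69 and 8.74 RPKM in Ikzf1 KO cells, against 0.16, 0.217, 0.0378 and 0 RPKM in Ikzf3 KO cells. Psg17 is a pregnancy-specific glycoprotein gene of the CEACAM family (log2 difference of 3.68 ± 0.22 SE, adjusted p = 4.78e-05), whose Ikzf3 KO values rest on 4 or fewer reads per library. Marcksl1, which encodes an actin-binding protein, averaged 15.5 ± 4.67 RPKM in Ikzf1 KO cells and 1.62 ± 0.573 RPKM in Ikzf3 KO cells (SD, n = 4 each). Iigp1, an interferon-inducible GTPase gene, averaged 7.45 ± 2.28 RPKM in Ikzf1 KO cells and 0.548 ± 0.513 RPKM in Ikzf3 KO cells (SD, n = 4 each), and Ptgs1, the gene of cyclooxygenase 1, averaged 7.13 ± 2.8 RPKM in Ikzf1 KO cells and 0.744 ± 0.335 RPKM in Ikzf3 KO cells (SD, n = 4 each). Lzts2, which encodes a leucine zipper protein that restrains beta-catenin signalling, averaged 10.3 ± 2.18 RPKM in Ikzf1 KO cells and 1.59 ± 0.208 RPKM in Ikzf3 KO cells (SD, n = 4 each), and Sorbs3, which encodes the adhesion adaptor vinexin, averaged 6.59 ± 0.886 RPKM in Ikzf1 KO cells and 0.546 ± 0.334 RPKM in Ikzf3 KO cells (SD, n = 4 each). Emilin1, a matrix glycoprotein gene, averaged 5.92 ± 0.49 RPKM in Ikzf1 KO cells and 0.632 ± 0.241 RPKM in Ikzf3 KO cells (SD, n = 4 each), and Inka1, which encodes an inhibitor of the kinase PAK4, averaged 13.7 ± 1.44 RPKM in Ikzf1 KO cells and 1.92 ± 0.423 RPKM in Ikzf3 KO cells (SD, n = 4 each). These 7 genes had log2 fold changes from 2.36 to 3.02 with adjusted p from 4.78e-05 to 0.00145. Grb7, which encodes a signalling adaptor and lies 9.529 kb from Ikzf3, completed the 15, at 5.53 ± 0.455 RPKM in Ikzf1 KO cells and 0.763 ± 0.0914 RPKM in Ikzf3 KO cells (SD, n = 4 each, log2 difference of 2.25 ± 0.13 SE, adjusted p = 4.45e-05).

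In the other direction, Tmem119 had the widest gap among named genes. Tmem119 had 0.0979, 0.321, 0.0868 and 0.096 RPKM in Ikzf1 KO cells, against 27, 30.1, 58.6 and 19.4 RPKM in Ikzf3 KO cells. Tmem119 encodes a membrane protein best known as a marker of microglia. Its Ikzf1 KO values rest on 4, 9, 3 and 5 reads in S12 to S15, against 742, 611, 1707 and 544 reads in S1 to S4, and it had a log2 difference of -5.61 ± 0.31 (SE, adjusted p = 4.29e-05). Tmem119 had 0, 0 and 0.418 RPKM in DKO cells and 6.69, 11.7, 5.45 and 1.06 RPKM in Cre only cells, so the Cre only libraries lay between the knockouts. It lies at chr5:113793729-113800516 on the minus strand.

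Dmwd, which encodes a WD repeat protein, showed the same pattern. Dmwd had 0.554, 0.323, 0.446 and 0.522 RPKM in Ikzf1 KO cells, against 15.3, 15.2, 33.6 and 17 RPKM in Ikzf3 KO cells. The lowest Ikzf3 KO library was far above the highest Ikzf1 KO library (log2 difference of -4.36 ± 0.26 SE, adjusted p = 4.78e-05), and Dmwd had 0.289, 0.096 and 0.808 RPKM in DKO cells and 5.6, 9.94, 9.44 and 5.03 RPKM in Cre only cells. It lies at chr7:19076227-19082776 on the plus strand, and its upstream window, chr7:19075950-19076199, holds TTCCC at bases -224 and -191.
Dmwd: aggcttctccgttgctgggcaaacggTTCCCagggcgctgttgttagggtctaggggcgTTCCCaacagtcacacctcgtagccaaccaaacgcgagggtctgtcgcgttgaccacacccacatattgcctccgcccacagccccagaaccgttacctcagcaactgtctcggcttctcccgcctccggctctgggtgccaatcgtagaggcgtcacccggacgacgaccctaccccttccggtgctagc
The words GGGAA or TTCCC stood in the 250 bases upstream of 62.56% of 390 genes called higher and 58.67% of 375 called lower that have an entry, against 58.61% of 7388 genes tested and 55.89% of all 27025 promoters of the table, so both shares were close to that of all genes. A match is not a binding site, and the lack of one says only that the letters are not in this window.

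The calcium-binding protein genes S100a4 and S100a6 were both lower in Ikzf1 KO cells. S100a4 had 6.5, 12, 9.29 and 4.87 RPKM in Ikzf1 KO cells, against 65, 79.5, 64.2 and 120.5 RPKM in Ikzf3 KO cells. S100a6 had 53.4, 83.8, 69.4 and 30.4 RPKM in Ikzf1 KO cells, against 294, 373, 365 and 529 RPKM in Ikzf3 KO cells. Both groups were clearly apart in both genes, at log2 difference of -3.28 ± 0.30 (SE, adjusted p = 0.000309) and log2 difference of -2.77 ± 0.32 (SE, adjusted p = 0.000936). S100a4 had 34.6, 35.7 and 67.1 RPKM in DKO cells and 30.4, 30, 56.5 and 41.7 RPKM in Cre only cells, and its exons share 51.7% of their length with a predicted gene on the same strand, so its level is uncertain. Among 13 measured S100 and annexin genes 5 were lower and 1 higher, with a median of -0.27. The 5 were S100a4, S100a6, Anxa1 (-1.35 ± 0.24), Anxa5 (-0.74 ± 0.15) and, outside the naming rule, Anxa2 (-0.81 ± 0.18), and the 1 higher was S100a1 (0.89 ± 0.21), also named after its value was seen. Anxa5 lost its call without S12, S13 or S14, and without each of these 3 libraries 3 genes of the list were called lower. S100a1 was not called without S2, S3, S12, S13, S14 or S15.

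The other genes with a wide gap below Ikzf3 KO cells had a range of functions, and they began with a pair of receptors. Ctla4 had 0.559, 1.17, 0.69 and 0.305 RPKM in Ikzf1 KO cells, against 5.89, 6.16, 23.5 and 15.7 RPKM in Ikzf3 KO cells. Cd28 had 4.28, 6.84, 5.31 and 2.95 RPKM in Ikzf1 KO cells, against 29.2, 26.1, 46.5 and 41.6 RPKM in Ikzf3 KO cells. Ctla4 and Cd28 encode the paired inhibitory and stimulatory receptors for the B7 ligands and lie next to each other on chromosome 1, and both were lower in Ikzf1 KO cells (log2 difference of -3.31 ± 0.44 SE, adjusted p = 0.00229 and log2 difference of -2.78 ± 0.27 SE, adjusted p = 0.000389). Avil had 10.5, 11, 10.1 and 9.81 RPKM in Ikzf1 KO cells, against 104, 91.9, 138 and 46.8 RPKM in Ikzf3 KO cells. Avil encodes the actin-binding protein advillin (log2 difference of -3.04 ± 0.29 SE, adjusted p = 0.000372). Capn5, a calpain protease gene, averaged 1.17 ± 0.295 RPKM in Ikzf1 KO cells and 16.6 ± 7.87 RPKM in Ikzf3 KO cells (SD, n = 4 each), and Serpinb1a, which encodes an inhibitor of serine proteases, averaged 2.5 ± 0.842 RPKM in Ikzf1 KO cells and 33.6 ± 15 RPKM in Ikzf3 KO cells (SD, n = 4 each). Smox, the gene of spermine oxidase, averaged 1.02 ± 0.254 RPKM in Ikzf1 KO cells and 12.2 ± 5.73 RPKM in Ikzf3 KO cells (SD, n = 4 each), and Hk3, the gene of hexokinase 3, averaged 1.86 ± 0.356 RPKM in Ikzf1 KO cells and 17.3 ± 7.97 RPKM in Ikzf3 KO cells (SD, n = 4 each). Mgat3, which encodes the enzyme that bisects N-glycans, averaged 0.107 ± 0.0473 RPKM in Ikzf1 KO cells and 6.58 ± 3.9 RPKM in Ikzf3 KO cells (SD, n = 4 each), and Dixdc1, a Wnt pathway gene, averaged 1.97 ± 0.904 RPKM in Ikzf1 KO cells and 19.9 ± 6.4 RPKM in Ikzf3 KO cells (SD, n = 4 each). These 6 genes had log2 fold changes from -3.44 to -2.81 with adjusted p from 0.000264 to 0.000817. The other 3 of the 15 were Klhl30 (-3.62 ± 0.48), Cabcoco1 (-2.96 ± 0.27) and the noncoding RNA Platr11 (-3.29 ± 0.36), whose Ikzf1 KO values came from 2 or fewer reads per library. All 30 genes of both directions were called under every alternative setting that tested them, 19 or 20 settings each. The settings reuse the libraries in which these genes were selected for a wide gap, so this largely follows from the selection and is not separate support.

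**Figure D2:**
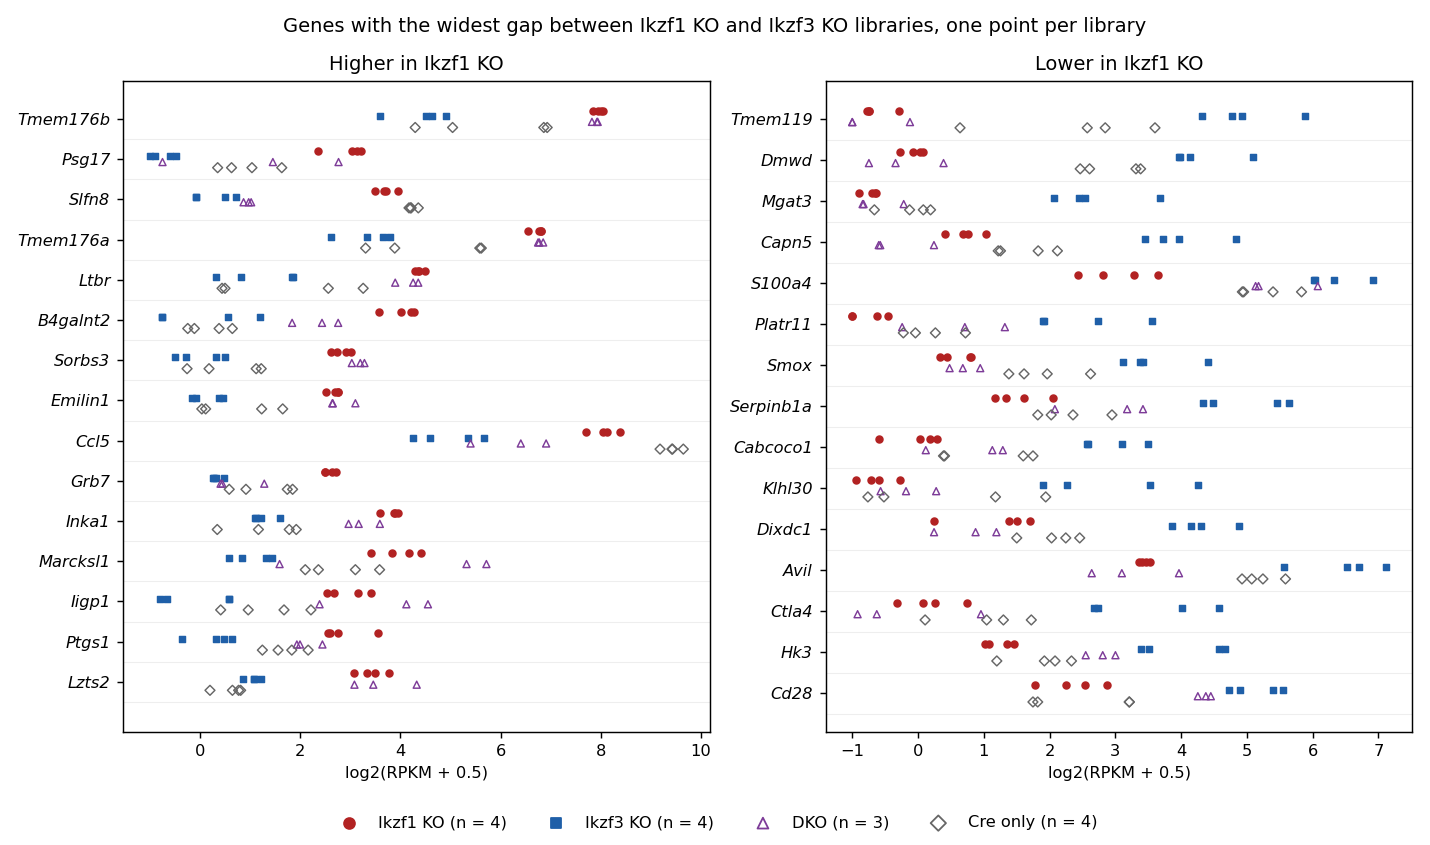
log2(RPKM + 0.5) of the 15 genes with the widest gap in each direction, 1 point per library, for Ikzf1 KO (filled circles), Ikzf3 KO (filled squares), DKO (open triangles) and Cre only cells (open diamonds). Ikzf1 KO and Ikzf3 KO points do not overlap in any gene, while DKO and Cre only points fall at different places from gene to gene.

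Functional groups were described by how many measured members were called, beside 5.4% of all genes higher and 5.31% lower, and by their median, beside 0.03 over all genes. The 498 genes measured in the lists include 111 called (22.29%). The lists hold genes chosen with earlier results of these data known, so these shares are not evidence of their own. Chemokines are treated first because Ccl5 led them.

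All 6 measured chemokine genes had higher means in Ikzf1 KO cells, with a median of 2.59, and 3 were called higher and none lower. Besides Ccl5 these were Ccl9 (2.29 ± 0.346 RPKM in Ikzf1 KO cells and 0.075 ± 0.0272 RPKM in Ikzf3 KO cells, SD, n = 4 each, log2 difference of 2.27 ± 0.14 SE, adjusted p = 4.78e-05), with 2 or 3 reads in each Ikzf3 KO library, and Ccl1, the ligand of CCR8 (log2 difference of 3.22 ± 0.80 SE, adjusted p = 0.0372). Ccl1 had 51.4, 43.5, 50 and 11.8 RPKM in Ikzf1 KO cells, against 8.14, 10.6, 1.04 and 0.765 RPKM in Ikzf3 KO cells. Ccl1 was lowest in S15 among Ikzf1 KO and in S3 and S4 among Ikzf3 KO libraries. The difference was 1.82 against S1 and S2, where it was not called, and 4.63 against S3 and S4, and the call was lost without S3, S4, S12, S13 or S14. Ccl3, Ccl4 and Xcl1, which attract myeloid cells and T cells, had log2 differences of 2.79 ± 0.92, 2.39 ± 0.87 and 2.06 ± 0.62 and were not called (adjusted p = 0.0895, 0.116 and 0.0691). All 6 were called without S2 and 4 without S1, and 2 without S3, S4, S12, S13 or S14. Against S1 and S2 alone the median was 1.44 and against S3 and S4 alone 3.59.

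Of 13 receptors for chemotaxis, egress and homing, 2 were higher and 5 lower, with a median of -0.37. Ltb4r1, the receptor for leukotriene B4, averaged 34.1 ± 1 RPKM in Ikzf1 KO cells and 111 ± 20.2 RPKM in Ikzf3 KO cells (SD, n = 4 each, log2 difference of -1.67 ± 0.15 SE, adjusted p = 0.000264), with 3.37, 4.96 and 7.18 RPKM in DKO cells and 85.9, 112, 99.4 and 70.3 RPKM in Cre only cells. Gpr183, the receptor that guides cells by oxysterols, averaged 1.99 ± 0.271 RPKM in Ikzf1 KO cells and 4.51 ± 0.873 RPKM in Ikzf3 KO cells (SD, n = 4 each, log2 difference of -0.99 ± 0.17 SE, adjusted p = 0.00739). Cmklr1 had 5.22, 3.12, 3.71 and 8.5 RPKM in Ikzf1 KO cells, against 0.42, 0.568, 0.0233 and 0.218 RPKM in Ikzf3 KO cells. Cmklr1, the chemerin receptor, was thus the clearest of the higher ones (log2 difference of 2.77 ± 0.32 SE, adjusted p = 0.00111). Cxcr3 (1.16 ± 0.28) was the other higher gene, and Cxcr4 (-2.68 ± 0.73) and S1pr4 (-0.76 ± 0.19) were also lower, all 3 named after their values were seen. Between 3 and 5 lower and 1 and 2 higher members were called as each library was left out, with 3 lower without S3, S4, S12, S13, S14 or S15.

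The genes of the cytotoxic granule did not move as 1 group. Of 13 perforin, granzyme and related protease genes 1 was higher and 5 were lower, with a median of -0.80. Gzma had 13250, 14660, 15350 and 12670 RPKM in Ikzf1 KO cells, against 4696, 6690, 3413 and 4668 RPKM in Ikzf3 KO cells. Gzma encodes granzyme A, a tryptase that was an abundant message in every library, and it was higher in all Ikzf1 KO than in all Ikzf3 KO libraries (log2 difference of 1.56 ± 0.24 SE, adjusted p = 0.00413). Prf1 had 150.4, 144, 146 and 141 RPKM in Ikzf1 KO cells, against 1048, 918, 489.6 and 229 RPKM in Ikzf3 KO cells. Prf1 encodes perforin, which forms the pores that let granzymes enter, and its Ikzf1 KO libraries were nearly equal while the Ikzf3 KO libraries spanned a wide range above them (log2 difference of -1.98 ± 0.43 SE, adjusted p = 0.0224). The difference was -2.75 against S1 and S2 and -1.20 against S3 and S4, the call was lost without S12, S13, S14 or S15, and DKO cells had 10, 30.2 and 66.4 RPKM. Ctsg had 10.6, 18.1, 12.8 and 7.96 RPKM in Ikzf1 KO cells, against 42.9, 41, 78.8 and 37.9 RPKM in Ikzf3 KO cells. Ctsg, the gene of cathepsin G, had a log2 difference of -1.97 ± 0.29 (SE, adjusted p = 0.00402). Gzmk was lower (-1.50 ± 0.39; adjusted p = 0.0434) but lost its call without S3, S4, S12, S13, S14 or S15. Gzmd (-1.77 ± 0.48) and Gzmn (-1.63 ± 0.43) were the other 2 lower genes, outside the naming rule. Gzmb, the granzyme B gene, averaged 9987 ± 429 RPKM in Ikzf1 KO cells and 5831 ± 4674 RPKM in Ikzf3 KO cells (SD, n = 4 each) and was not called. Gzmc, the granzyme C gene, averaged 13900 ± 1939 RPKM in Ikzf1 KO cells and 14240 ± 2743 RPKM in Ikzf3 KO cells (SD, n = 4 each) and was not called either. Leaving out each library in turn left 1 to 4 lower members, 1 without S12, S13, S14 or S15, 2 without S3 and 3 without S1 or S2. Granzyme genes resemble each other closely, so reads may be split between them uncertainly.

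Of 12 genes of granule exocytosis and lysosomes, Ctsd (169 ± 8.01 RPKM in Ikzf1 KO cells and 318 ± 65.3 RPKM in Ikzf3 KO cells, SD, n = 4 each, log2 difference of -0.89 ± 0.16 SE, adjusted p = 0.00986) and Rab27a were lower and none was higher. Ctsd encodes the lysosomal protease cathepsin D, and its exons share 34.4% of their length with a predicted gene on the same strand. Rab27a, which docks granules at the membrane, had a log2 difference of -0.66 ± 0.18 (SE, adjusted p = 0.0491) and lost its call without S3, S4, S12, S13, S14 or S15. Of 7 death ligand and effector cytokine genes Tnfsf10 alone was called. Tnfsf10 had 36.4, 37.9, 41.1 and 48 RPKM in Ikzf1 KO cells, against 13, 14.5, 7.92 and 20.2 RPKM in Ikzf3 KO cells. Tnfsf10 encodes TRAIL, a ligand that triggers cell death, and it was higher in Ikzf1 KO cells (log2 difference of 1.58 ± 0.25 SE, adjusted p = 0.00544).

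Receptors that NK cells use to sense targets differed from list to list. None of 14 C-type lectin receptor genes (NKG2, CD94, NKR-P1 and KLRG1 genes) was called by limma, and 1 had an unadjusted p below 0.05. Against S1 and S2 alone 4 of them were called higher and none lower, and against S3 and S4 alone 1 was called higher and 4 lower. Of all genes 28.0% were called in the first of these comparisons and 61.2% in the second, so these counts do not mark the list. Of 10 Ly49 genes Klra5 was higher (29.7 ± 3.72 RPKM in Ikzf1 KO cells and 11.3 ± 5.11 RPKM in Ikzf3 KO cells, SD, n = 4 each, log2 difference of 1.47 ± 0.33 SE, adjusted p = 0.0255), and it lost its call without S4, S12, S13, S14 or S15. Against S1 and S2 alone 4 Ly49 genes were called higher and none lower, beside 28.0% of all genes called in either direction. Against S3 and S4 alone 1 was called higher and 2 lower, beside 61.2% of all genes. Of 18 immunoglobulin-type receptor and adaptor genes 2 were higher and 3 lower (27.8% called, beside 10.7% of all genes). Cd226 had 39.8, 45.4, 47.8 and 39 RPKM in Ikzf1 KO cells, against 7.14, 8.45, 3.81 and 13.6 RPKM in Ikzf3 KO cells. Cd226 encodes DNAM-1, an activating receptor for nectin-like ligands (log2 difference of 2.43 ± 0.31 SE, adjusted p = 0.00184), and it had 77.1, 82.5 and 62.3 RPKM in DKO cells and 35.3, 28.6, 20.2 and 24.4 RPKM in Cre only cells. Crtam had 21.3, 15.5, 18.6 and 10.4 RPKM in Ikzf1 KO cells, against 4.69, 5.1, 3.22 and 5.49 RPKM in Ikzf3 KO cells. Crtam encodes a receptor of the same ligand family (log2 difference of 1.70 ± 0.24 SE, adjusted p = 0.00292). Sh2d1b2, the gene of the adaptor ERT, averaged 1.2 ± 0.691 RPKM in Ikzf1 KO cells and 11.6 ± 6.56 RPKM in Ikzf3 KO cells (SD, n = 4 each, log2 difference of -2.67 ± 0.55 SE, adjusted p = 0.0183) and lost its call without S3, S12, S14 or S15. Slamf7 (-0.64 ± 0.14; adjusted p = 0.0218) lost its call without S12, S14 or S15, and Sh2d1a (-2.36 ± 0.52), named after its value was seen, was the third lower gene. No gene of the list was lower without S12, S14 or S15, while 6 were lower without S1 and 5 without S2.

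Of 11 inhibitory checkpoint genes 3 were higher and 3 lower. Havcr2 had 8.7, 10.4, 8.47 and 4.43 RPKM in Ikzf1 KO cells, against 79, 67.1, 79.7 and 32 RPKM in Ikzf3 KO cells. Havcr2 encodes TIM-3 (log2 difference of -2.91 ± 0.34 SE, adjusted p = 0.00115) and was lower in Ikzf1 KO cells, as were Ctla4 and Vsir. Vsir, which encodes VISTA, averaged 31.3 ± 7.22 RPKM in Ikzf1 KO cells and 97.1 ± 32.7 RPKM in Ikzf3 KO cells (SD, n = 4 each, log2 difference of -1.60 ± 0.26 SE, adjusted p = 0.00544). Tox had 6.99, 5.93, 6.02 and 9.6 RPKM in Ikzf1 KO cells, against 1.68, 1.71, 1.65 and 2.2 RPKM in Ikzf3 KO cells. Tox, a nuclear factor of lymphoid development that also marks exhausted T cells, was higher (log2 difference of 1.71 ± 0.18 SE, adjusted p = 0.000564), and so were Entpd1 (1.34 ± 0.31) and Lilrb4a (0.82 ± 0.22), both named after their values were seen. Without S12, S13, S14 or S15 only Tox was called higher, while the 3 lower genes were called without any single library.

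Among 16 IL-15 and IL-2 signalling genes only Il2rg, the common gamma chain, was called. Il2rg had 140.5, 131, 128 and 146 RPKM in Ikzf1 KO cells, against 91.2, 87.9, 77.8 and 53.5 RPKM in Ikzf3 KO cells. All Ikzf1 KO libraries were above all Ikzf3 KO libraries (log2 difference of 0.84 ± 0.18 SE, adjusted p = 0.0212), but the call was lost without S12, S13, S14 or S15, and a predicted gene on the same strand covers 30.5% of its exons. In this list 13 of 16 genes had higher means in Ikzf1 KO cells, 9 had an unadjusted p below 0.05, and Cish and Socs2, feedback inhibitors of STAT5 signalling, had differences of 1.96 ± 0.69 and 1.42 ± 0.43 that were not called. Without S1 4 genes of the list were called higher and without S2 3, and without S15 1 was called lower. Among 15 other cytokine receptor and STAT genes 2 were higher and 1 was lower. Il12rb2 had 360.2, 349.6, 352 and 392 RPKM in Ikzf1 KO cells, against 165, 166, 114 and 86.7 RPKM in Ikzf3 KO cells. Il12rb2 encodes a chain of the IL-12 receptor (log2 difference of 1.50 ± 0.22 SE, adjusted p = 0.00355), and 40.0% of its exons overlap Serbp1 on the opposite strand. Il10ra, the receptor for IL-10, averaged 37.3 ± 5.09 RPKM in Ikzf1 KO cells and 80.3 ± 26.1 RPKM in Ikzf3 KO cells (SD, n = 4 each, log2 difference of -1.05 ± 0.23 SE, adjusted p = 0.0234) and lost its call without S4, S12, S14 or S15.

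Among 17 transcription factors of the NK lineage 1 was higher and 3 were lower. Tbx21 had 65.6, 56.1, 59.8 and 65.2 RPKM in Ikzf1 KO cells, against 40.4, 39.8, 39.9 and 37.6 RPKM in Ikzf3 KO cells. Tbx21 encodes T-bet, which drives NK maturation, and its Ikzf3 KO libraries were nearly equal across both pairs (log2 difference of 0.64 ± 0.11 SE, adjusted p = 0.00814). Its partner Eomes was not called (47.5 ± 2.42 RPKM in Ikzf1 KO cells and 69.8 ± 16.3 RPKM in Ikzf3 KO cells, SD, n = 4 each; adjusted p = 0.0932). Nfil3 had 72, 83.8, 72.3 and 22.9 RPKM in Ikzf1 KO cells, against 174, 183, 202 and 146 RPKM in Ikzf3 KO cells. Nfil3 is needed for NK cells to arise (log2 difference of -1.63 ± 0.38 SE, adjusted p = 0.0292), and it was lowest in S15 and lost its call without S3, S12 or S14 and against S1 and S2 alone. Bach2 (-0.89 ± 0.22) and Irf4 (-0.81 ± 0.21) were lower with adjusted p of 0.0378 and 0.0429, and Bach2 lost its call without S1, S3, S4, S13, S14 or S15 and Irf4 without any library other than S2. Leaving out S14 left no lower gene in this list, and leaving out S3, S12, S13 or S15 left 1.

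Of 9 measured AP-1 genes 1 was higher and 2 lower. Fosl2 had 5.3, 4.94, 5.31 and 3.04 RPKM in Ikzf1 KO cells, against 12.4, 9.86, 18.7 and 9.82 RPKM in Ikzf3 KO cells. Fosl2 was lower in Ikzf1 KO cells (log2 difference of -1.34 ± 0.24 SE, adjusted p = 0.0108). Fos had 1.78, 1.51, 2.11 and 2.7 RPKM in Ikzf1 KO cells, against 0.93, 0.629, 0.169 and 0.14 RPKM in Ikzf3 KO cells. Fos, a low message in all libraries, was higher (log2 difference of 1.45 ± 0.29 SE, adjusted p = 0.0157) and lost its call without S14 or S15. Atf3 was lower at the edge of the threshold (-1.11 ± 0.30; adjusted p = 0.04999) and lost its call without any library other than S4. Junb, an abundant member, averaged 131 ± 33.2 RPKM in Ikzf1 KO cells and 127 ± 30.8 RPKM in Ikzf3 KO cells (SD, n = 4 each) and was not called, nor were Jun and Jund. Of 19 other immediate early genes Dusp4 (1.53 ± 0.33 RPKM in Ikzf1 KO cells and 4.23 ± 1.17 RPKM in Ikzf3 KO cells, SD, n = 4 each, log2 difference of -1.20 ± 0.22 SE, adjusted p = 0.0119) and Ier3 were lower. Dusp4 encodes a phosphatase that inactivates MAP kinases, and Ier3 (-1.81 ± 0.41) lost its call without S3, S4 or S12 and against S1 and S2 alone.

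Of 10 genes of precursor and memory-like lymphocytes 3 were lower, Cd28 and Cd27 among them, and none was higher, with a median of -0.59. Cd27 had 1.26, 1.42, 1.38 and 0.611 RPKM in Ikzf1 KO cells, against 5.79, 5.09, 5.97 and 6.34 RPKM in Ikzf3 KO cells. Cd27 encodes a costimulatory receptor of less mature NK cells, and every Ikzf1 KO library was below every Ikzf3 KO library (log2 difference of -1.94 ± 0.20 SE, adjusted p = 0.00049). Cd27 had 7.29, 7.31 and 10.3 RPKM in DKO cells and 7.99, 7.36, 5.2 and 4.83 RPKM in Cre only cells, so Ikzf1 KO cells had the lowest level of the 4 groups.

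Of 8 measured genes associated with type 1 innate lymphoid cells (ILC1) 4 were higher and none lower, with a median of 2.02 (1.58 against S1 and S2, 2.39 against S3 and S4). Tmem176a, Tmem176b, Gpr55 and Inpp4b were the 4. Gpr55 had 10.3, 7.81, 9.56 and 9.09 RPKM in Ikzf1 KO cells, against 1.79, 1.99, 1.56 and 1.64 RPKM in Ikzf3 KO cells. Gpr55 encodes a lipid receptor (log2 difference of 2.11 ± 0.13 SE, adjusted p = 4.82e-05). Inpp4b had 13.8, 14.5, 14.2 and 11.2 RPKM in Ikzf1 KO cells, against 3.64, 3.31, 1.65 and 1.98 RPKM in Ikzf3 KO cells. Inpp4b encodes a phosphatase of inositol lipids (log2 difference of 2.20 ± 0.23 SE, adjusted p = 0.000573). Itga1, the CD49a chain that marks these cells, had means of 6.44 ± 0.82 RPKM in Ikzf1 KO cells and 4.03 ± 1.16 RPKM in Ikzf3 KO cells (SD, n = 4 each) and was not called (adjusted p = 0.0753), and neither was Cxcr6 (0.99 ± 0.40; adjusted p = 0.143). The summed level of the 9 genes in the table ran from 497.6 to 606.5 RPKM in Ikzf1 KO cells and from 57.6 to 188 RPKM in Ikzf3 KO cells.

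Of 6 measured Schlafen genes 4 were higher and 1 was lower. Slfn5 averaged 2.13 ± 0.822 RPKM in Ikzf1 KO cells and 0.169 ± 0.035 RPKM in Ikzf3 KO cells (SD, n = 4 each, log2 difference of 1.93 ± 0.21 SE, adjusted p = 0.000642), and Slfn3 (0.56 ± 0.13) was the least of the higher genes and was named after its value was seen. Without S3, S12, S13, S14 or S15 the list had 3 higher genes. The lower one, the pseudogene Slfn10-ps, averaged 1.25 ± 0.19 RPKM in Ikzf1 KO cells and 3 ± 0.437 RPKM in Ikzf3 KO cells (SD, n = 4 each, log2 difference of -0.99 ± 0.15 SE, adjusted p = 0.00404). Of 4 Ifitm genes, which restrict virus entry, Ifitm3 was higher and Ifitm10 lower. Ifitm3 had 474, 539.7, 459.6 and 372 RPKM in Ikzf1 KO cells, against 172, 189, 88.5 and 108 RPKM in Ikzf3 KO cells. Ifitm3 had a log2 difference of 1.78 ± 0.26 (SE, adjusted p = 0.00354), with 258, 352 and 409.8 RPKM in DKO cells and 72.5, 94.5, 31.8 and 20.8 RPKM in Cre only cells. Every Ikzf1 KO and DKO library was above every Cre only library, as were Ikzf3 KO libraries S1, S2 and S4 but not S3. Ifitm10 (-1.74 ± 0.35) lost its call without S12 or S14.

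Of 19 measured interferon-stimulated genes 9 were higher and none was lower, with a median of 0.81 (0.60 against S1 and S2, 1.04 against S3 and S4). Bst2 had 81.6, 112, 83.8 and 84.4 RPKM in Ikzf1 KO cells, against 46.1, 47.4, 38.1 and 46.8 RPKM in Ikzf3 KO cells. Bst2 encodes tetherin, which holds back budding viruses (log2 difference of 1.01 ± 0.15 SE, adjusted p = 0.00347). Ifit2 had 5.96, 7.9, 6.28 and 4.88 RPKM in Ikzf1 KO cells, against 3.06, 3.04, 1.8 and 2.31 RPKM in Ikzf3 KO cells. Ifit2, which binds viral RNA, had a log2 difference of 1.15 ± 0.20 (SE, adjusted p = 0.008). Oasl2 had 6.51, 10.3, 6.99 and 4.31 RPKM in Ikzf1 KO cells, against 1.92, 2.09, 0.212 and 0.453 RPKM in Ikzf3 KO cells. Oasl2, a relative of the oligoadenylate synthetases, was lowest in S3 and S4 (log2 difference of 2.33 ± 0.45 SE, adjusted p = 0.0136). Other higher genes were Ifih1 (0.81 ± 0.18) and, outside the naming rule, Oas1a, Rtp4, Zbp1 and Irf9, with log2 fold changes of 1.84 ± 0.40, 1.43 ± 0.31, 0.84 ± 0.21 and 0.57 ± 0.15. Without S12, S13 or S14 only 3 were called, and without S3 5. Ifih1 lost its call without S3, S12, S13 or S14.

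Of 14 MHC class I presentation genes 4 were higher and none was lower, with a median of 0.18. Nlrc5 had 9.9, 9.88, 9.99 and 10.8 RPKM in Ikzf1 KO cells, against 5, 4.26, 2.51 and 3.23 RPKM in Ikzf3 KO cells. Nlrc5 encodes the transactivator of class I genes (log2 difference of 1.36 ± 0.19 SE, adjusted p = 0.00277). H2-Q4 averaged 85.5 ± 5.13 RPKM in Ikzf1 KO cells and 44.1 ± 7.07 RPKM in Ikzf3 KO cells (SD, n = 4 each, log2 difference of 0.96 ± 0.14 SE, adjusted p = 0.00347), H2-K1 averaged 1306 ± 73.9 RPKM in Ikzf1 KO cells and 844 ± 70.4 RPKM in Ikzf3 KO cells (SD, n = 4 each, log2 difference of 0.63 ± 0.14 SE, adjusted p = 0.0268) and the immunoproteasome subunit gene Psmb10 averaged 155 ± 9.14 RPKM in Ikzf1 KO cells and 81.5 ± 21.1 RPKM in Ikzf3 KO cells (SD, n = 4 each, log2 difference of 0.96 ± 0.19 SE, adjusted p = 0.0148). H2-K1 lost its call without S2, S12, S13, S14 or S15 and Psmb10 without S12, S14 or S15, and only Nlrc5 and H2-Q4 remained called without S12, S14 or S15, at 2 genes. The class I genes are close copies of each other. The list's median was 0.51 against S1 and S2 and -0.16 against S3 and S4.

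**Figure D3:**
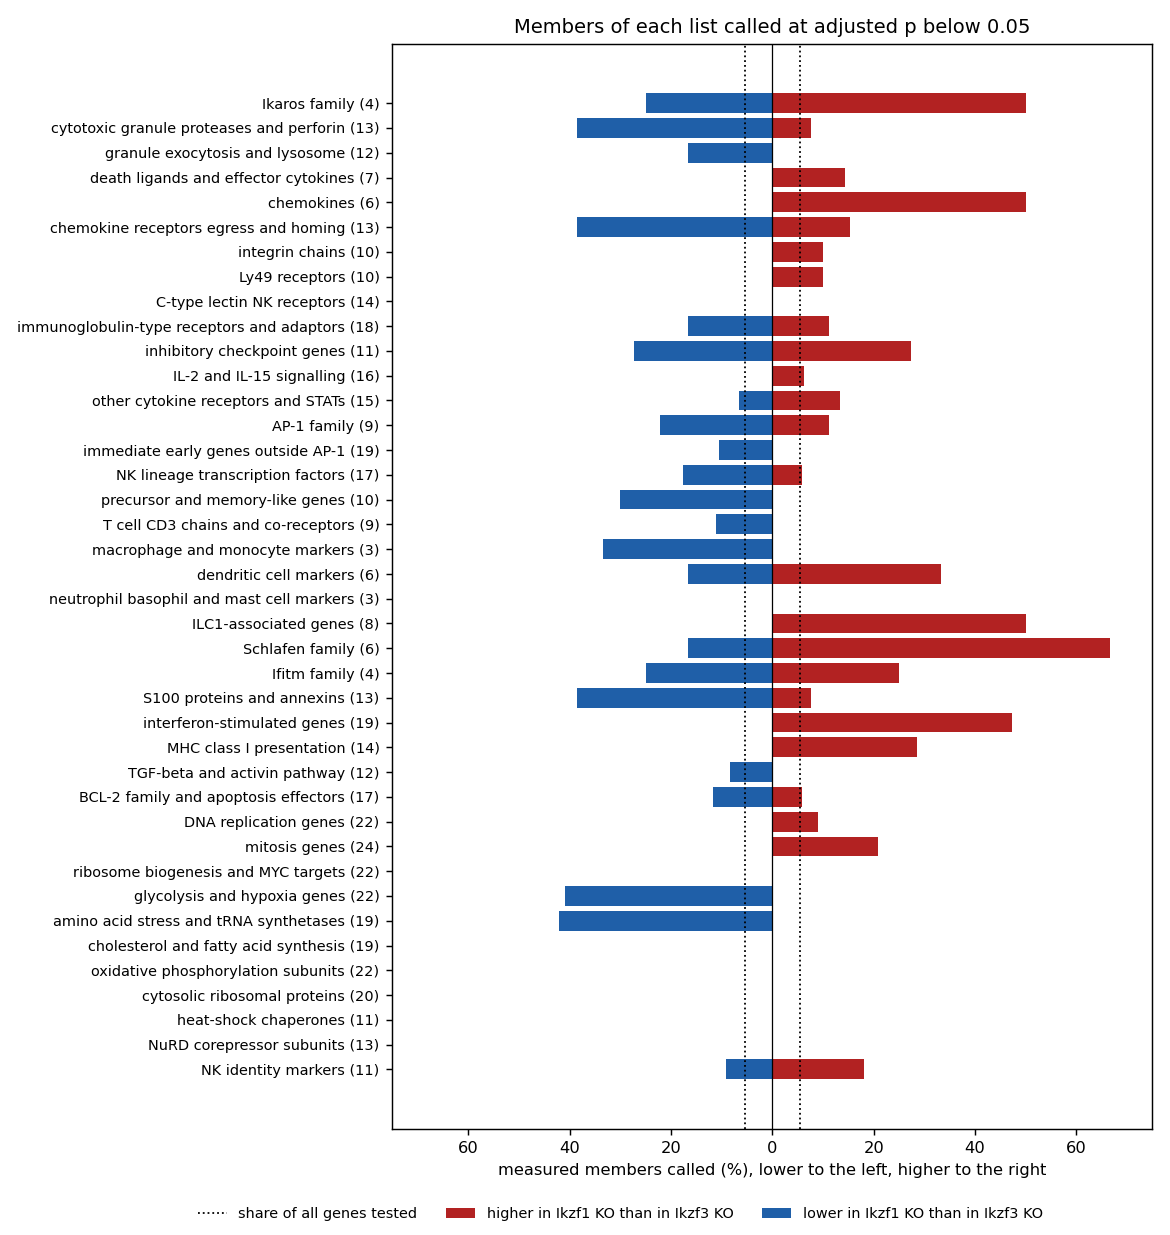
Share of measured members (number in brackets) called higher in Ikzf1 KO cells (red, right) or lower (blue, left), for each list with 3 or more measured genes. Dotted lines mark the shares of all genes tested, 5.4% higher and 5.31% lower.

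Metabolic genes were lower in Ikzf1 KO cells where they were called. Of 22 glycolysis and hypoxia genes 9 were lower and none was higher, with a median of -0.87. In each of the 22 the Ikzf1 KO mean lay on the same side of the means of both Ikzf3 KO pairs, with medians of -0.56 against S1 and S2 and -1.09 against S3 and S4. Ero1l had 18, 23.1, 21.4 and 19.9 RPKM in Ikzf1 KO cells, against 69.8, 57.7, 200.2 and 107 RPKM in Ikzf3 KO cells. Ero1l encodes an oxidase for protein folding that hypoxia induces, and S3 was the highest library (log2 difference of -2.20 ± 0.35 SE, adjusted p = 0.00514). Slc16a3 had 37.3, 40.1, 41.8 and 25.2 RPKM in Ikzf1 KO cells, against 66.5, 78.3, 86.6 and 68.6 RPKM in Ikzf3 KO cells. Slc16a3 exports lactate (log2 difference of -1.06 ± 0.18 SE, adjusted p = 0.00813), and its DKO values were 1.17, 10.9 and 59.5 RPKM. Pdk1, which keeps pyruvate out of mitochondria, averaged 20.3 ± 3.14 RPKM in Ikzf1 KO cells and 37.3 ± 6.55 RPKM in Ikzf3 KO cells (SD, n = 4 each, log2 difference of -0.86 ± 0.17 SE, adjusted p = 0.0143), and Pgam1 averaged 66.3 ± 6.49 RPKM in Ikzf1 KO cells and 99.6 ± 7.58 RPKM in Ikzf3 KO cells (SD, n = 4 each, log2 difference of -0.59 ± 0.13 SE, adjusted p = 0.0206). The Cre only libraries S16 to S19 were split, at 162.7, 176, 33.63 and 32.15 RPKM for Slc16a3 and 153, 173.1, 61.73 and 58.13 RPKM for Pgam1. In both genes and in Pdk1, S16 and S17 lay above every Ikzf3 KO library and S18 and S19 below every one. For Ero1l, S16 and S17 lay within the Ikzf3 KO range and S18 and S19 below it. Pfkp, Pgk1, Bnip3, Vegfa and Hif1a, outside the naming rule, had log2 fold changes from -2.49 to -0.49. Without S12 or S14 only 2 of the list were called, without S13 4 and without S3 5. Pdk1 lost its call without S12 or S14 and Pgam1 without S12, S14 or S15. Slc16a3 and Pgam1 lost theirs with all 15 libraries in the fit and with array weights per group (adjusted p up to 0.354 for Slc16a3 and 0.331 for Pgam1), and Pdk1 with all 15 libraries.

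Of 19 genes of the amino acid stress response and tRNA charging 8 were lower and none was higher, with a median of -0.51. Asns had 11.3, 14.8, 11.8 and 12.2 RPKM in Ikzf1 KO cells, against 38.8, 46.6, 44.7 and 34.6 RPKM in Ikzf3 KO cells. Asns encodes asparagine synthetase, a target of the stress factor ATF4, and the groups were well apart in every library (log2 difference of -1.67 ± 0.14 SE, adjusted p = 0.000224). Trib3 had 5.3, 7.03, 5.58 and 2.93 RPKM in Ikzf1 KO cells, against 24.7, 28.2, 69 and 41.6 RPKM in Ikzf3 KO cells. Trib3 encodes a pseudokinase induced by the same response (log2 difference of -2.80 ± 0.35 SE, adjusted p = 0.00154). Chac1 had 0.519, 1.06, 0.327 and 0.272 RPKM in Ikzf1 KO cells, against 6.22, 6.89, 5.24 and 2.87 RPKM in Ikzf3 KO cells. Chac1 degrades glutathione (log2 difference of -2.47 ± 0.30 SE, adjusted p = 0.0014). Mthfd2, a mitochondrial folate enzyme gene, averaged 21.3 ± 2.69 RPKM in Ikzf1 KO cells and 51.7 ± 7.7 RPKM in Ikzf3 KO cells (SD, n = 4 each, log2 difference of -1.26 ± 0.15 SE, adjusted p = 0.001). Asns had 1.15, 5.26 and 7.49 RPKM in DKO cells and 8.57, 9.84, 22.1 and 20.3 RPKM in Cre only cells, and Trib3 had 4.3, 2.82 and 4.07 RPKM in DKO cells and 6.18, 8.38, 7.2 and 5.15 RPKM in Cre only cells, so the Ikzf3 KO level was the highest of the 4 groups in both. Outside the naming rule, Slc3a2, Sars, Yars and Cars were lower with log2 fold changes from -1.10 to -0.48. The count was 4 without S12, S13 or S14 and 5 without S15.

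**Figure D4:**
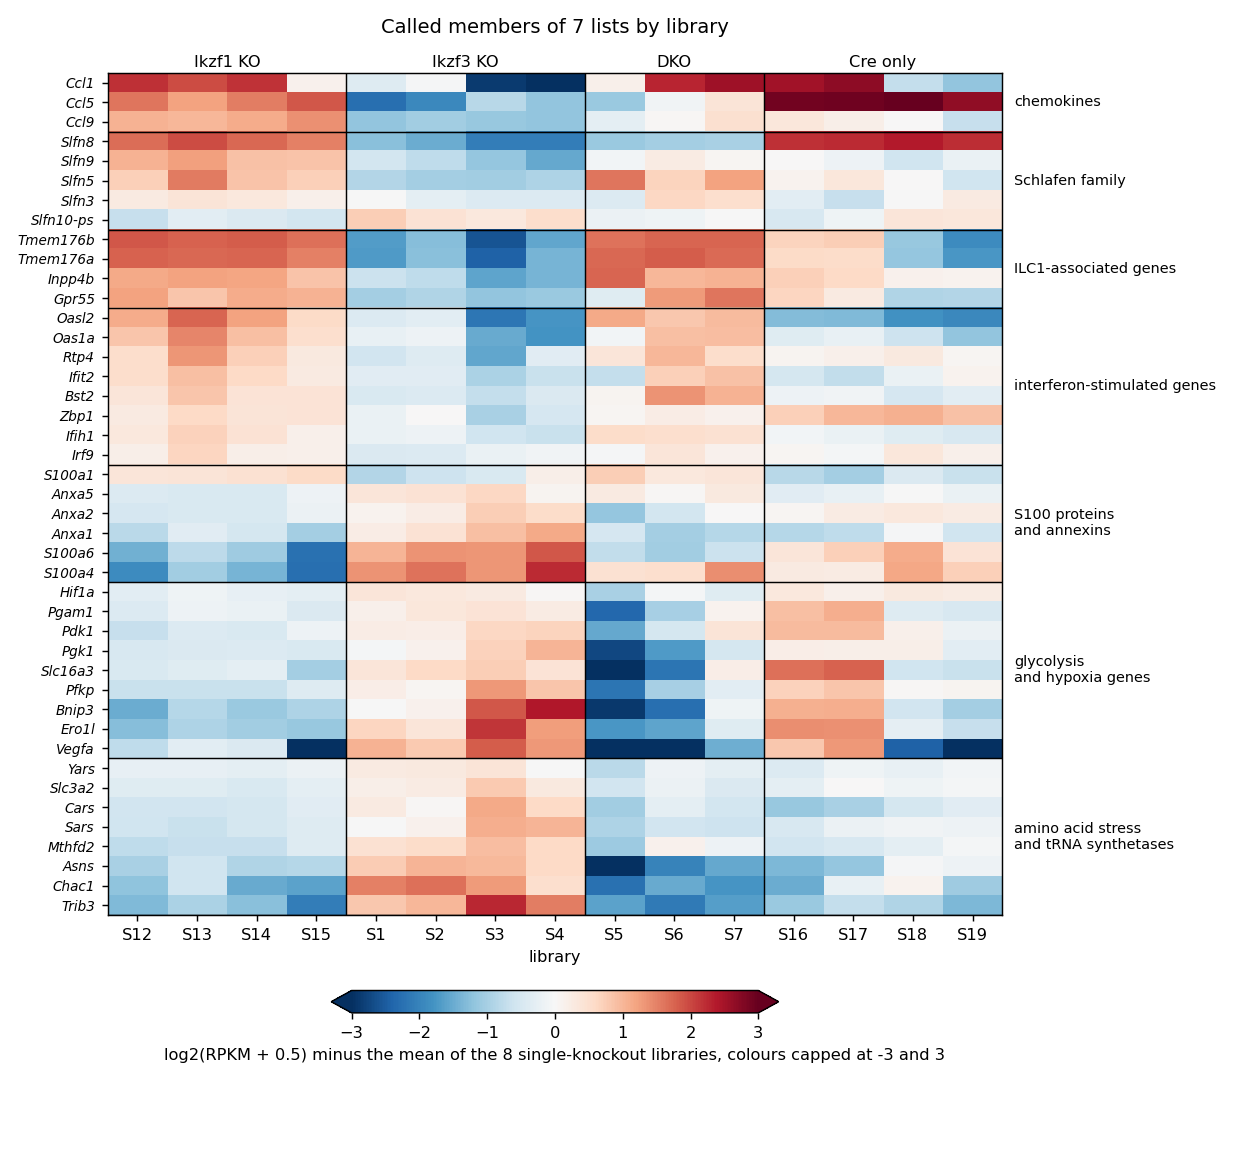
log2(RPKM + 0.5) of called members of 7 lists in each library, as the difference from the mean of the 8 single-knockout libraries (red above, blue below, colours capped at -3 and 3). Ikzf1 KO columns stand at the left, then Ikzf3 KO, DKO and Cre only, and the colours differ between the first 2 blocks because the genes were selected as called.

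Genes of cell division mostly had higher means in Ikzf1 KO cells. All 22 DNA replication genes had higher means there, with a median of 0.84 (0.29 against S1 and S2, 1.40 against S3 and S4), and 2 were called higher (9.09%, beside 5.4% of all genes). Against S1 and S2 alone 13 were called higher and 1 lower, beside 28.0% of all genes called in either direction. Against S3 and S4 alone 20 were called higher and none lower, beside 61.2% of all genes. Cdt1, which licenses origins, averaged 32.2 ± 4.32 RPKM in Ikzf1 KO cells and 18.8 ± 2.53 RPKM in Ikzf3 KO cells (SD, n = 4 each, log2 difference of 0.76 ± 0.15 SE, adjusted p = 0.0143), and Mcm7, a helicase subunit gene, averaged 79 ± 5.43 RPKM in Ikzf1 KO cells and 42 ± 13 RPKM in Ikzf3 KO cells (SD, n = 4 each, log2 difference of 0.95 ± 0.22 SE, adjusted p = 0.0294). Cdt1 lost its call without S12 or S15 and Mcm7 without S3, S12, S13, S14 or S15, while 13 genes of the list were called without S1 and 9 without S2. Of 24 mitosis genes 5 were higher and none was lower (20.8% higher, beside 5.4% of all genes), with a median of 0.43. Called higher were 9 against S1 and S2 alone and 17 against S3 and S4 alone, beside the same 28.0% and 61.2% of all genes. Aurkb (0.59 ± 0.13), Cdc20 (0.61 ± 0.15), Ttk (0.49 ± 0.13) and Cdca8 (0.44 ± 0.12), which act at the spindle and its checkpoint, and Kif20a (0.46 ± 0.12), outside the naming rule, were the 5. None of the 5 calls held without S3, S12, S13, S14 or S15, where the count was 0, and without S4 it was 1. With all 15 libraries in the fit Aurkb, Cdc20, Ttk and Cdca8 lost their calls.

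The direction of ribosome biogenesis genes depended on which Ikzf3 KO pair was used. None of 22 was called by limma, 2 had an unadjusted p below 0.05, and the median was 0.73 against all 4 Ikzf3 KO libraries, -0.41 against S1 and S2 and 1.80 against S3 and S4. With S1 and S2 alone 14 of the 22 were called lower and 1 higher in Ikzf1 KO cells, beside 28.0% of all genes called in either direction. With S3 and S4 alone 21 were called higher and 1 lower, beside 61.2% of all genes. Srm, the spermidine synthase gene and a MYC target, ran from 51.3 to 62.1 RPKM in Ikzf1 KO cells and from 3.23 to 84.5 RPKM in Ikzf3 KO cells, and Nolc1, a nucleolar phosphoprotein gene, from 25.4 to 37.8 RPKM in Ikzf1 KO cells and from 2.17 to 38.9 RPKM in Ikzf3 KO cells. Cytosolic ribosomal protein genes had a median of -0.51, and 0 of 20 were called by limma (4 at an unadjusted p below 0.05). Their median was -0.07 against S1 and S2 and -0.98 against S3 and S4. In the latter comparison all 20 were called lower, beside 61.2% of all genes called in either direction. None of 22 oxidative phosphorylation genes (median 0.10), 19 cholesterol and fatty acid genes (-0.35), 11 heat-shock genes (0.10) or 13 NuRD subunit genes (0.17) was called by limma, and 3, 5, 1 and 3 of them had an unadjusted p below 0.05. Single libraries mattered here too, with 5 cholesterol genes called lower without S15 and 2 ribosomal protein genes without S1.

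**Figure D5:**
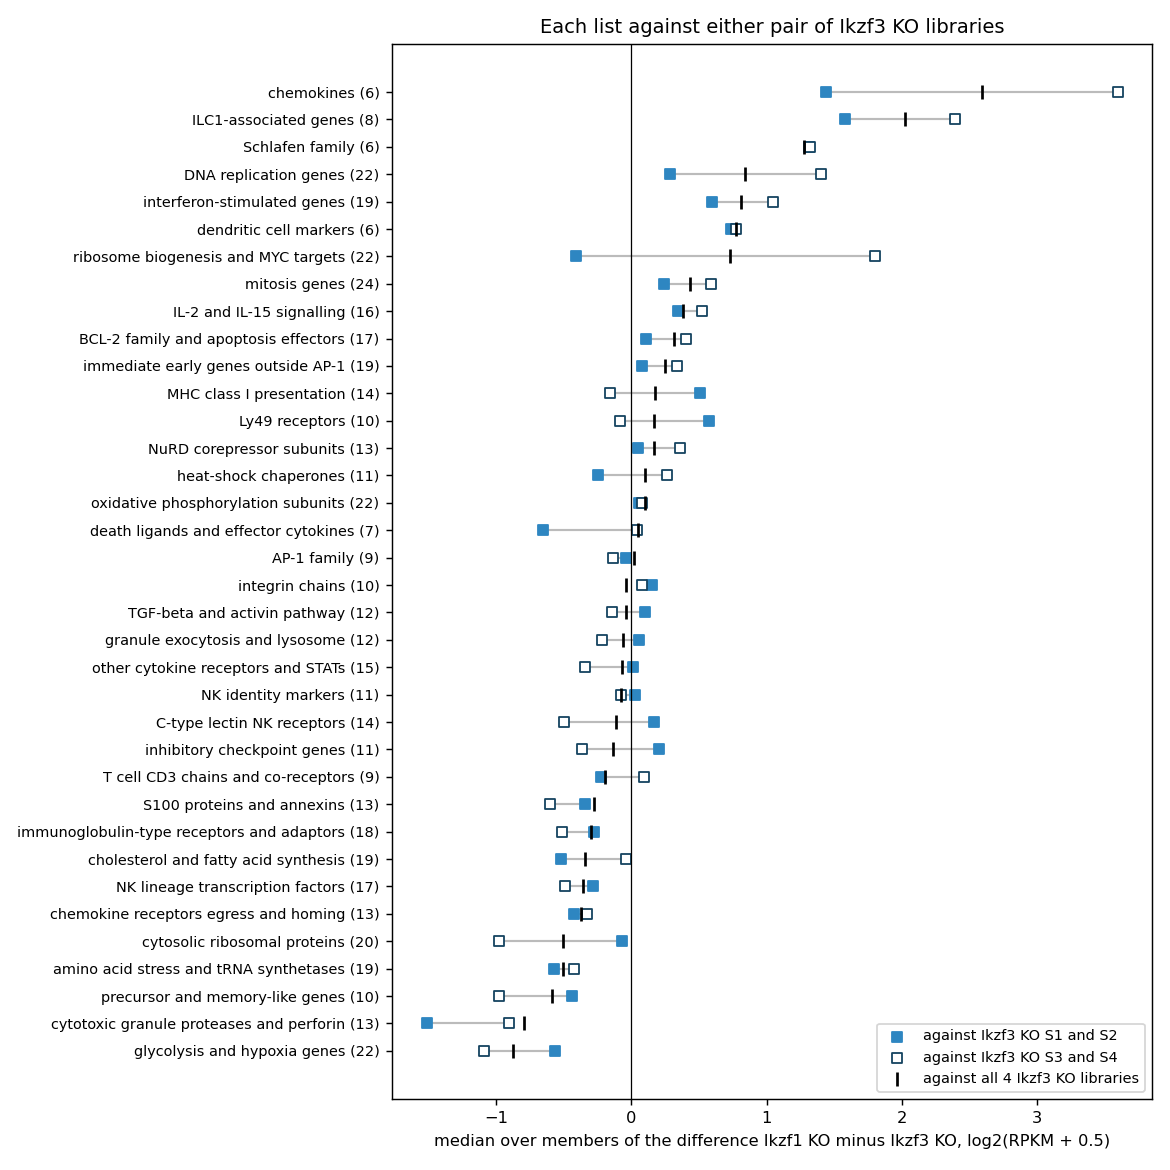
Median difference of each list, Ikzf1 KO minus Ikzf3 KO on log2(RPKM + 0.5), against Ikzf3 KO libraries S1 and S2 (filled squares), against S3 and S4 (open squares) and against all 4 (bars), with the number of measured genes in brackets. Glycolysis and chemokine genes keep their side against both pairs, and ribosome biogenesis genes lie at -0.41 against the first and 1.80 against the second.

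Smaller groups held single genes that differed. Of 17 BCL-2 family and apoptosis genes 1 was higher and 2 were lower. Bid, a BH3-only protein that links death receptors to mitochondria, was lower (-1.30 ± 0.24), a call lost with array weights per group (adjusted p = 0.0711), and 17.7% of its exons overlap Bcl2l13 on the opposite strand. Of 12 TGF-beta and activin pathway genes Tgfb3, a ligand gene, was lower (4.07 ± 0.562 RPKM in Ikzf1 KO cells and 9.3 ± 0.995 RPKM in Ikzf3 KO cells, SD, n = 4 each, log2 difference of -1.10 ± 0.14 SE, adjusted p = 0.00158), a call lost with all 15 libraries in the fit (adjusted p = 0.0685). Among 10 integrin chains Itgax was higher (0.76 ± 0.21; adjusted p = 0.0492), a call lost without any library other than S3. Genes used as markers of other cells included some called ones, and their part in the results was not tested. Cd79b, a B cell receptor gene, averaged 1.21 ± 0.327 RPKM in Ikzf1 KO cells and 0.0346 ± 0.0408 RPKM in Ikzf3 KO cells (SD, n = 4 each, log2 difference of 1.66 ± 0.18 SE, adjusted p = 0.000632), with 1 read or none in each Ikzf3 KO library. The other B cell gene of the list, which made up most of the summed level given above, went the other way (log2 difference of -0.605) and was not called. Cd74, the invariant chain of MHC class II, averaged 5.72 ± 2.79 RPKM in Ikzf1 KO cells and 0.602 ± 0.129 RPKM in Ikzf3 KO cells (SD, n = 4 each, log2 difference of 2.40 ± 0.29 SE, adjusted p = 0.00127), and Hmox1, heme oxygenase of macrophages and stressed cells, averaged 1.61 ± 0.266 RPKM in Ikzf1 KO cells and 6.55 ± 1.36 RPKM in Ikzf3 KO cells (SD, n = 4 each, log2 difference of -1.73 ± 0.17 SE, adjusted p = 0.00042). H2-Ab1, a class II gene, went the other way from Cd74, at 14.4 ± 1.99 RPKM in Ikzf1 KO cells and 54.3 ± 30.4 RPKM in Ikzf3 KO cells (SD, n = 4 each, log2 difference of -1.70 ± 0.38 SE, adjusted p = 0.026), and lost its call without S3, S4, S12, S13, S14 or S15. The 3 basophil and mast cell genes Mcpt8, Cpa3 and Kit were not called by limma and none had an unadjusted p below 0.05.

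Cre only cells stood between the 2 knockouts in 68.91% of the genes called higher and 77.15% of those called lower, against 41.8% of all genes tested. Called genes were selected for distance between the knockouts, and any other group falls more often within a wider interval. The higher shares among called genes therefore say nothing by themselves about Cre only cells. They lay beyond the Ikzf1 KO level in 15.36% of the genes called higher, as for Ccl5 and Slfn8, and beyond the Ikzf3 KO level in 15.74%. Among genes called lower, Cre only cells lay beyond the Ikzf1 KO level in 14.06% and beyond the Ikzf3 KO level in 8.789%. Over all genes tested these shares were 37.24% and 20.96%. The smaller shares among called genes are the other side of the same selection and likewise say nothing by themselves. DKO cells were nearer to Ikzf1 KO than to Ikzf3 KO cells in 69.67% of the genes called higher and 74.22% of those called lower, against 63.06% of all genes tested. These shares describe group means, with 3 DKO and 4 Cre only libraries, and carry no test.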

How the data were processed

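RNA-seq was made from cultured NK cells, with reads of 75 bp per the labels. Values are RPKM, computed and deposited by the authors per the file headers, with no read counts beside them. STAR, featureCounts, limma 3.34.9 and the build mm10 stand in the submitters' processing notes, and their settings are not given in the sources used here. Columns are named by genotype without the culture, so they went to the cultured groups by the match of genotype and group size. Depth was recovered from the steps of the RPKM values with gene lengths of GENCODE mouse release 21: 11291 of 11736 genes (96.21%) gave whole reads within 0.02 of a read in all libraries.

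The test was limma 3.58.1 (R 4.3.3) on log2(RPKM + 0.5) of the 8 single-knockout libraries, with 6 residual degrees of freedom, a mean trend and robust moderation. Genes needed RPKM 1 in 3 of the 8 libraries, and a gene was called below an adjusted p of 0.05 (Benjamini and Hochberg, all genes tested). Exact permutation tests used scipy 1.17.1. The procedure was also run on simulated data, in which each library varied independently around its group mean. Those data lacked the pairs seen among Ikzf3 KO libraries, so they cannot show how the test behaves with such pairs. Named genes were Ikzf1 and Ikzf3, the 15 with the widest gap in each direction (mean RPKM 5 in the higher group, without predicted genes and antigen receptor segments), and up to 4 called members of each of 43 lists with the smallest adjusted p. The members and lists were chosen with earlier results of these data known. The 20 alternatives changed the pseudocount, filter, normalization, weights, moderation and libraries used. The directly sorted samples were not analysed here. Some genes that meet the naming rule are not reported here.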

Additional observations from a re-analysis of the deposited data

Results flagged for a closer look

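In 64 sets of 4 libraries examined for a library far from the others, 3 were found, and chance gives about 1 in 20. The lowest Ikzf1 KO library for Tmem176a was S15, at 93.1 RPKM against 109, 111 and 111 in the other three, with a gap of 0.8975 of the group's range on the log2 scale. The highest Ikzf1 KO library for Tmem119 was S13, at 0.321 RPKM from 9 reads, with a gap of 0.9443 of the range. The highest Ikzf3 KO library for Dmwd was S3, at 33.6 RPKM against 15.2 to 17.0 RPKM in S1, S2 and S4, with a gap of 0.8578 of the range. In each case the library lay on its own group's side of the comparison.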

How the results depend on the processing

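Of 1033 genes called, 521 were higher and 512 lower in Ikzf1 KO cells. The count was 482 (250 higher, 232 lower) with a filter of mean RPKM 5, 1720 (872 and 848) with all 15 libraries in the fit, and 3439 (1832 and 1607) with array weights per library. Without S3 and S4 it was 2699 (1447 and 1252), and without S1 and S2 5899 (3091 and 2808). Leaving out 1 library at a time gave 419 to 1491 genes, 223 to 735 higher and 196 to 756 lower. Members of the lists called, 111 in the main test, numbered 280 with array weights per library, 233 without S3 and S4, 317 without S1 and S2, and 56 to 144 leaving out 1 library. The cause was not tested. Pseudocounts of 0.1 and 1, no filter, median-ratio and quantile scaling, weights per group and plain moderation kept every total within 1.5 times (872 to 1332 genes). Over the named genes, 1964 values kept direction and call, 185 lost the call, and none changed sign. Beside the losses given with the genes, array weights per group ended the calls of Ccl1, Itgax, Slamf7, Atf3, Ier3, Nfil3, Bach2, Irf4, Ifih1, Cdc20, Ttk and Cdca8. All 15 libraries in the fit ended those of Itgax, Slamf7, Atf3 and Irf4, and the filter of mean RPKM 5 those of Gzmk, Rab27a, Itgax, Ttk and Cdca8. Median-ratio rescaling ended that of Itgax, quantile normalization that of Ttk, and a pseudocount of 0.1 that of Atf3. No paired analysis was possible because the columns carry no replicate numbers that tie a library of one knockout to a library of the other. Depth limits genes with few reads in one group, such as Tmem119, Psg17 and Platr11, whose fold changes depend on the pseudocount.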

Other observations

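Gm33424, AA465934 and C1qtnf1, chosen after their values were seen and outside the naming rule, separated the knockouts widely. The predicted gene Gm33424 averaged 4.47 RPKM in Ikzf1 KO cells and 203.5 RPKM in Ikzf3 KO cells (log2 fold change -5.48), and AA465934 averaged 1.46 RPKM in Ikzf1 KO cells and 27.1 RPKM in Ikzf3 KO cells (-3.82). C1qtnf1 averaged 4.53 RPKM in Ikzf1 KO cells and 0.0316 RPKM in Ikzf3 KO cells (3.24).

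Genes near the deleted loci were described as a check on position. Within 5 Mb of Ikzf3, 148 genes were tested and 13 were called higher and 9 lower (14.86%), beside 12.78% of 892 genes tested on chromosome 11 and 10.7% of all genes. B4galnt2, Grb7 and Tbx21, described above, are among these called genes, and whether their position matters was not tested. Within 5 Mb of Ikzf1, 7 genes were tested and 1 was called in each direction, 1700042O10Rik higher and Upp1 lower. Of 46 antigen receptor segments tested, 8 were higher and 4 lower in Ikzf1 KO cells, beside 5.4% of all genes tested higher and 5.31% lower.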
